A study of Rattus norvegicus with 18 samples.

Results

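The interferon-stimulated genes examined in the rat lung were *Mx1*, *Mx2*, *Irf7*, *Isg15*, *Oas1a*, *Ifit2*, *Ifit3*, *Rsad2*, and *Cxcl10*. They were taken by name from the deposited gene tables, and all 9 were found among the 22081 genes listed and passed the filter on low counts at every time point. The lungs came from male F344 rats that received either vehicle or MWNT-7, a multiwalled carbon nanotube (MWCNT), by instillation into the trachea. The treated rats were given 0.5 mg/kg every 4 weeks from 9 weeks of age, and the control rats received the suspension medium, saline with Tween, on the same schedule. Lungs were taken at 3 time points, called Years 0.5, 1, and 2, from 3 control rats and 3 MWCNT-treated rats each time, so that 18 rats form 6 groups. Every library is from one rat, and the tissue was a tumour-free piece of the accessory lobe, so that the values are averages over all the cells in that piece.

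Type I interferons are secreted by cells that detect foreign or misplaced nucleic acid. They bind a receptor of *Ifnar1* and *Ifnar2*, whose kinases activate transcription factors that join *Irf9*. The complex binds a DNA element, the interferon-stimulated response element (ISRE), in front of the induced genes. Interferon gamma has its own receptor and acts through another element, the gamma-activated site (GAS). The 9 genes are widely used as readouts of this response: *Irf7* encodes a transcription factor that amplifies type I interferon production, *Mx1*, *Mx2*, *Oas1a*, *Ifit2*, *Ifit3*, and *Rsad2* encode antiviral effectors, *Isg15* encodes a ubiquitin-like modifier, and *Cxcl10* encodes a chemokine that attracts T and NK cells.

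Total counts per library ranged from 13297643 to 21130757. The 6 lung markers found, among them surfactant genes, summed to between 43319.8 and 63317 TPM in every rat, TPM being the relative abundance of transcripts after scaling for gene length. By the FDR (explained with the tests of the 9 genes), 2, 2, and 2 of them were higher and 4, 3, and 4 lower in MWCNT-treated rats at Years 0.5, 1, and 2. At Year 0.5 the mean of *Sftpc*, a surfactant gene, was 20141 TPM in control rats and 35518 TPM in MWCNT-treated rats, and that of *Scgb1a1*, the club cell secretory protein, was 27083 and 13384 TPM, so that the members of this sum moved in opposite directions. The 7 macrophage markers summed to 293 to 390.4 TPM in control rats and to 718 to 1045 TPM in MWCNT-treated rats, with no overlap between the treatments.

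Promoter sequences from RefSeq (assembly GRCr8, in which they were located by gene symbol, whereas the counts use Rnor_6.0) were held for 6 of the 9 genes. No promoter was at hand for *Mx2*, *Isg15*, and *Ifit2*. The 250 bases before each start site were searched on both strands for the ISRE core, which is GAAA and GAAA separated by 2 bases of any kind, and for the GAS motif, which is TTC and GAA separated by 3 bases of any kind. The ISRE core was found in 5 of the 6 windows and in 3.41% of all 33469 rat windows of the same length, and the GAS motif was found in 1 of the 6, that of *Oas1a*, and in 7.67% of all windows. The windows of the 3 genes that were higher in MWCNT-treated rats at Year 0.5 are given whole, 5′ to 3′ on the strand of the gene, with each ISRE core match in capitals. They lie at chr14:15988816-15989065 (plus strand) for *Cxcl10*, chr1:205800024-205800273 (minus strand) for *Irf7*, and chr11:50294607-50294856 (minus strand) for *Mx1*.
Cxcl10: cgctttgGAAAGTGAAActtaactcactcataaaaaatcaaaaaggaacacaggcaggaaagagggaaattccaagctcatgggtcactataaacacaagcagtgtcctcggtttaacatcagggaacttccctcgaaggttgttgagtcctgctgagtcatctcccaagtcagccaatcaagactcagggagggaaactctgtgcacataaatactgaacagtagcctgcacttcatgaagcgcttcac
Irf7: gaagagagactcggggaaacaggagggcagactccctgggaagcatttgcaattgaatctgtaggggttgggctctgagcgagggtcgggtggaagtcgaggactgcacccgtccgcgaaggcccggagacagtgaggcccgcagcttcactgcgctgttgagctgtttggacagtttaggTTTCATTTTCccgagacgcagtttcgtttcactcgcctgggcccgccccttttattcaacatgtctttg
Mx1: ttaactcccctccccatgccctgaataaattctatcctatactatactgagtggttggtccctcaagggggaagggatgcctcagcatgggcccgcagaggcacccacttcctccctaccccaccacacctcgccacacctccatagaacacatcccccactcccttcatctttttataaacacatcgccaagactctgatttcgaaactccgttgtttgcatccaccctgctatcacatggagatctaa
The match of *Cxcl10* began 243 bases before the start site and that of *Irf7* 69 bases before it, and the window of *Mx1* held none. For the 3 other genes, only the stretch around the match is shown, at chr1:241527257-241527316 (plus strand) for *Ifit3*, chr6:48788233-48788292 (minus strand) for *Rsad2*, and chr12:41330406-41330465 (plus strand) for *Oas1a*.
Ifit3: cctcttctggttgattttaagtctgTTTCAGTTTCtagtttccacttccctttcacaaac
Rsad2: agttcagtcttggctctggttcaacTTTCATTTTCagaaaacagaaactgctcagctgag
Oas1a: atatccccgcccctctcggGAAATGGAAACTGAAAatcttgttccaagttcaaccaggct
*Oas1a* held 2 matches that overlap by 4 bases, which appear as one run of capitals. A match is a string of letters, and whether a factor binds there was not measured.

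The 9 genes did not move as one block in the MWCNT-treated lungs. *Cxcl10*, *Mx1*, and *Irf7* were higher in MWCNT-treated rats at Year 0.5, with fold changes of 2.83, 1.80, and 1.67. At Year 2, *Ifit2*, *Ifit3*, *Isg15*, and *Rsad2* were lower, with fold changes of 0.718, 0.762, 0.692, and 0.715, while *Cxcl10* was still higher, by 1.68-fold. *Mx2* and *Oas1a* passed no test between the treatments. In bulk tissue, fewer cells of a type and less RNA per cell cannot be told apart.

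Each time point was tested in its 6 rats with edgeR's quasi-likelihood test, with Benjamini-Hochberg adjustment over all genes tested to give the false discovery rate (FDR). Counted by the FDR alone, at a threshold of 0.05, 3 of the 9 genes were higher and 0 were lower at Year 0.5, where 20.2% of all genes tested were higher and 18.6% were lower. At Year 1, 1 was higher and 0 were lower, against 21.6% and 19.6% of all genes. At Year 2, 1 was higher and 4 were lower, against 25.2% and 24.0% of all genes. The median log2 fold change of the 9 genes was 0.17 at Year 0.5, 0.06 at Year 1, and -0.26 at Year 2, beside -0.02, 0.00, and -0.01 for all genes tested. With the additional requirement of an absolute log2 fold change above 1, which defines a differentially expressed gene (DEG) here, *Cxcl10* at Year 0.5 was the only one called. All treated rats were above all control rats for 3, 1, and 0 of the 9 genes and below them for 0, 0, and 4, against 27.1%, 28.5%, and 30.1% above and 24.5%, 26.3%, and 29.8% below among all genes. By the DEG criterion 9.10%, 10.2%, and 16.4% of all genes were DEGs at the 3 time points. The counts by the FDR depended on single rats: they ranged from 0 to 3 higher at Year 0.5 (0 higher and 1 lower, *Isg15*, without control rat 1, and 0 lower otherwise), from 0 to 2 higher at Year 1, and from 0 to 2 higher and 2 to 4 lower at Year 2 when each rat was left out in turn.

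**Figure D1:**
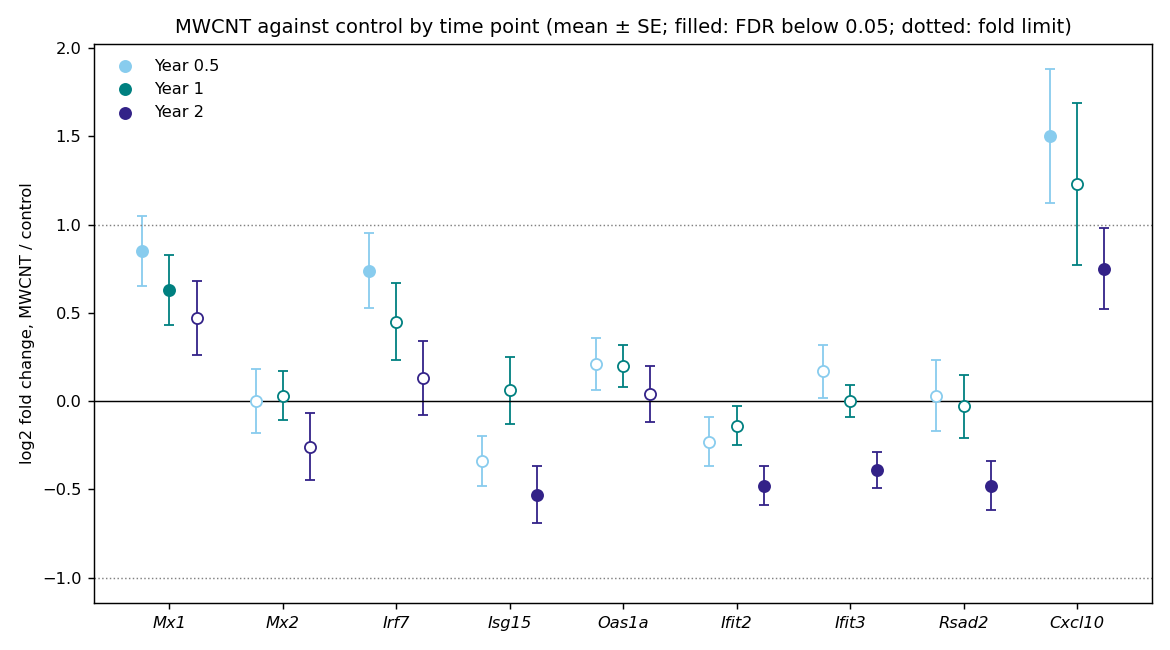
Log2 fold change of MWCNT-treated over control rats for each of the 9 genes at Years 0.5, 1, and 2, with the SE of the fit (3 rats per group), filled symbols for an FDR below 0.05 and dotted lines at the fold limit of the DEG criterion. *Cxcl10*, *Mx1*, and *Irf7* lie above 0 at all 3 time points, and *Ifit2*, *Ifit3*, *Isg15*, and *Rsad2* have filled symbols below 0 at Year 2 alone in these fits.

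On the TPM scale, which allows genes to be set beside each other, *Irf7* had the highest mean of the 9 in all 6 groups, from 62.3 ± 8.41 TPM (SD, n = 3) in control rats of Year 0.5 to 93.4 ± 29.9 TPM in MWCNT-treated rats of Year 0.5. *Rsad2* or *Cxcl10* was last in every group. In control rats, *Mx1* was the sixth at every time point (32.3 ± 7.59, 33.8 ± 1.38, and 41.4 ± 9.56 TPM) and stood below *Mx2* (54.9 ± 8.34, 53.0 ± 4.13, and 54.6 ± 9.09 TPM). In MWCNT-treated rats *Mx1* was the second or the third (52.3 ± 12.9, 44.0 ± 12.8, and 49.1 ± 13.1 TPM), next to *Mx2* (49.3 ± 13.1, 45.7 ± 7.49, and 39.2 ± 10.1 TPM), and the ranges of those neighbours overlapped. Most neighbours in these orders did not differ beyond their spread, since the ranges of the 3 rats were separate for 1 to 4 of the 8 neighbouring pairs of a group. The step from *Mx1* to *Oas1a* (20.0 ± 3.32, 21.5 ± 0.659, and 24.1 ± 4.48 TPM) was separate in control rats at all 3 time points.

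*Irf7* (ENSRNOG00000017414) lies on the minus strand of chromosome 1 at 214248837-214252456 in Rnor_6.0. Its level is given here, as for the following genes, as normalised CPM (counts scaled to the library size after TMM adjustment), the scale of the tests between rats. At Year 0.5 it was 53.2, 69.1, and 56.1 in control rats 1 to 3 and 86.4, 138, and 74.8 in MWCNT-treated rats 1 to 3. All MWCNT-treated rats were above all control rats, with rat 2 far above the other two, and the log2 fold change was 0.74 ± 0.21 (SE; FDR = 0.0214). The call was lost without control rat 1 (0.66, FDR = 0.0862) or control rat 3 (0.70, FDR = 0.0545), and by limma on log2(TPM + 1) (0.54, FDR = 0.0605). Without MWCNT-treated rat 2 the value was 0.44 (FDR = 0.0325). At Year 1 it was 76.8, 70.6, and 62.8 in control rats and 73.1, 137, and 75.9 in MWCNT-treated rats. Only MWCNT-treated rat 2 was above the controls, and the log2 fold change of 0.45 ± 0.22 did not pass (FDR = 0.134); without that rat it was 0.08. At Year 2 it was 83.1, 105, and 76.5 in control rats and 126, 98.4, and 63.9 in MWCNT-treated rats. Treated rat 1 was above all control rats and treated rat 3 below them, and the log2 fold change did not pass (0.13 ± 0.21, FDR = 0.653). *Irf7* overlaps *Phrf1* on the plus strand (33.2 to 38.6 TPM in control rats and 23.7 to 31.2 TPM in MWCNT-treated rats), and without a stated strand setting the reads of the shared stretch cannot be told apart.

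*Mx1* and *Mx2* encode dynamin-like GTPases and lie near each other on chromosome 11. *Mx1* (ENSRNOG00000001959, minus strand, 37891156-37914983) was at 45.0, 66.3, and 43.9 normalised CPM in control rats and 82.3, 122, and 76.7 in MWCNT-treated rats at Year 0.5. All treated rats were above all control rats, and the log2 fold change was 0.85 ± 0.20 (FDR = 0.0104), or 0.75 with an FDR of 0.0504 without control rat 1. At Year 1 it was 56.8, 53.3, and 50.7 in control rats and 68.5, 115, and 64.7 in MWCNT-treated rats. The groups were again separate (0.63 ± 0.20, FDR = 0.031), but the rise rested in part on treated rat 2, without which the log2 fold change was 0.31. The call at Year 1 was lost when any one control rat was left out (FDR = 0.0545, 0.0847, and 0.094 without control rats 1, 2, and 3). At Year 2 it was 61.8, 83.5, and 55.0 in control rats and 113, 100.4, and 63.0 in MWCNT-treated rats. The ranges overlapped through treated rat 3, and 0.47 ± 0.21 did not pass (FDR = 0.0963); without treated rat 3 it was 0.69 (FDR = 0.0083), and without control rat 2 it was 0.66 (FDR = 0.046).

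*Mx2* (ENSRNOG00000001963, plus strand, 38035450-38059950) showed no such shift. Its log2 fold change was -0.00 ± 0.18, 0.03 ± 0.14, and -0.26 ± 0.19 at Years 0.5, 1, and 2 (FDR = 0.99, 0.872, and 0.286), and the treatments overlapped each time. It ranged from 67.3 to 92.2 normalised CPM over the control rats and from 45.0 to 103 over the MWCNT-treated rats, the lowest being treated rat 3 of Year 2 and the highest treated rat 2 of Year 0.5. The same rats held the highest *Mx1* value and the lowest treated *Mx1* value.

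**Figure D2:**
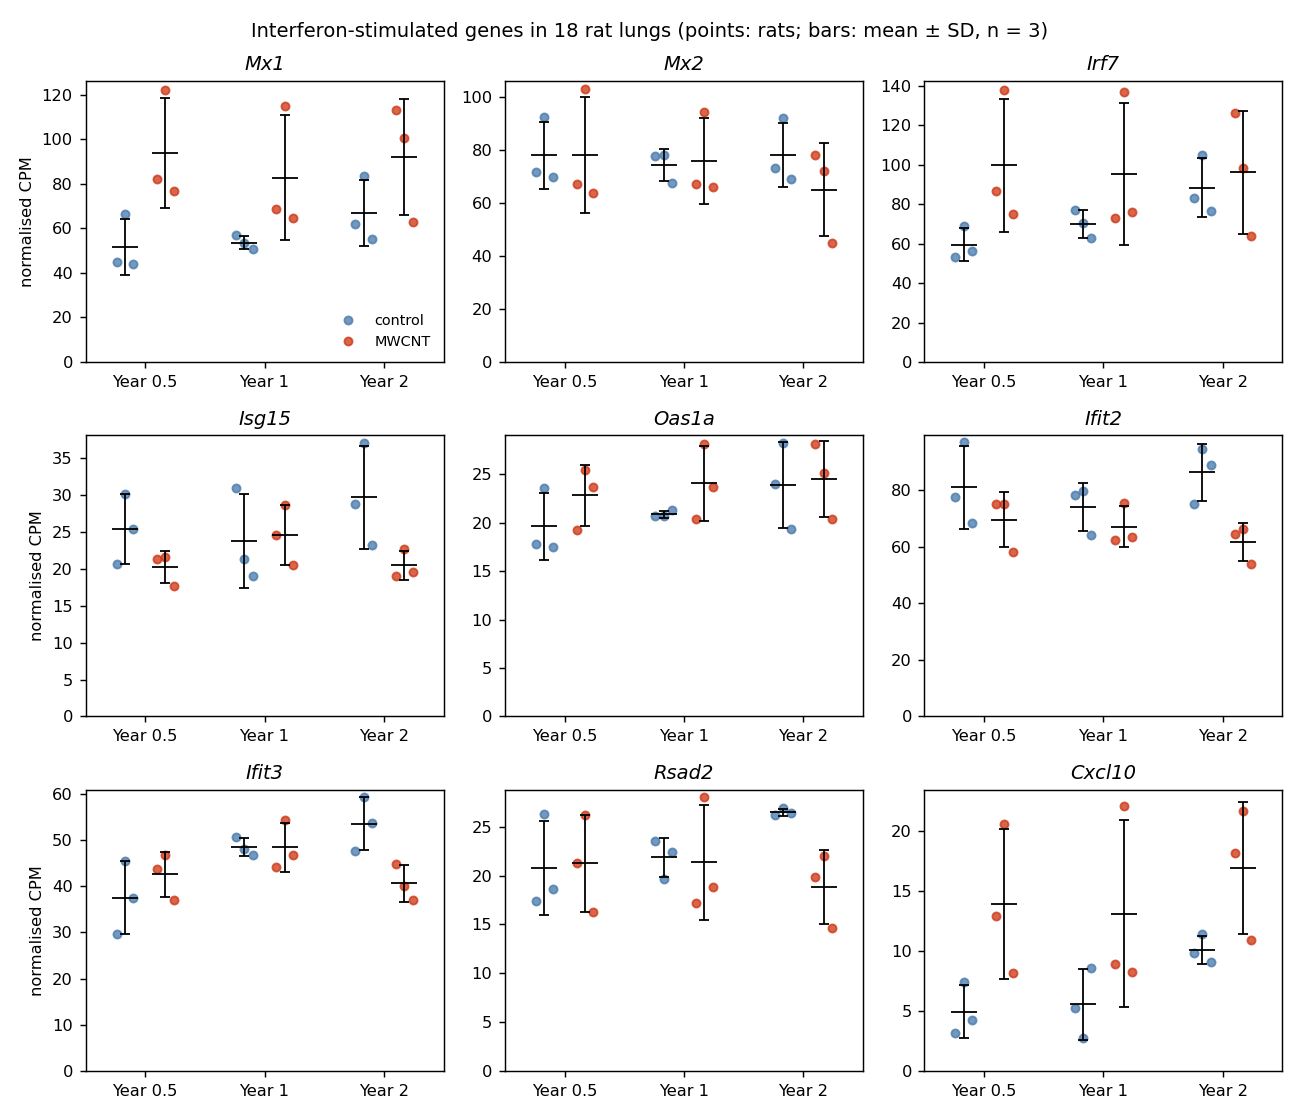
Normalised CPM of the 9 genes in each rat (points; control blue, MWCNT red) by time point, with the mean and SD of the 3 rats of each group in black and all vertical axes starting at 0. At Year 0.5 the red points of *Mx1*, *Irf7*, and *Cxcl10* are all above the blue ones, and at Year 2 those of *Ifit2*, *Ifit3*, *Isg15*, and *Rsad2* are all below.

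*Ifit2* and *Ifit3* encode tetratricopeptide proteins that bind foreign RNA or the complexes around it, and they are neighbours on the plus strand of chromosome 1. *Ifit2* (ENSRNOG00000036604, 252894663-252900726) was at 75.2, 94.7, and 89.1 normalised CPM in control rats and 64.7, 66.4, and 53.9 in MWCNT-treated rats at Year 2. All treated rats were below all control rats, and the log2 fold change of -0.48 ± 0.11 (FDR = 0.00503) held its call whichever rat was left out. At Year 0.5 (-0.23 ± 0.14, FDR = 0.216) and Year 1 (-0.14 ± 0.11, FDR = 0.33) the ranges of normalised CPM overlapped. On the TPM scale, however, all treated rats were below all control rats at both. The ranges were 32.4 to 40.7 against 42.0 to 58.5 TPM at Year 0.5 and 33.4 to 37.4 against 39.8 to 49.5 TPM at Year 1. *Ifit3* (ENSRNOG00000022839, 252906234-252911382) at Year 2 was 47.7, 59.3, and 53.6 in control rats and 44.9, 40.0, and 37.0 in MWCNT-treated rats. The groups were separate by a small margin, and -0.39 ± 0.10 (FDR = 0.0114) was called whichever rat was left out. At the earlier time points its log2 fold changes were 0.17 ± 0.15 and -0.00 ± 0.09 (FDR = 0.387 and 0.985). On the TPM scale the treated rats of Year 1 were also all below the control rats (39.3 to 44.8 against 48.3 to 50.7 TPM).

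*Isg15*, *Rsad2*, and *Oas1a* are 3 further effectors of different kinds. *Isg15* (ENSRNOG00000021802, chromosome 5, minus strand, 173624310-173626248) at Year 2 was 28.8, 37.1, and 23.2 normalised CPM in control rats and 19.1, 22.7, and 19.6 in MWCNT-treated rats. Every treated rat was below every control rat (-0.53 ± 0.16, FDR = 0.0214). That call was lost without control rat 1 (FDR = 0.0517), control rat 2 (-0.35, FDR = 0.0821), treated rat 1 (FDR = 0.0659), or treated rat 3 (FDR = 0.0684). *Isg15* was at -0.34 ± 0.14 at Year 0.5 (FDR = 0.0921; FDR = 0.0293 without control rat 1) and at 0.06 ± 0.19 at Year 1 (FDR = 0.831). On the TPM scale every treated rat was below every control rat at Year 0.5 too (25.5 to 30.1 against 32.6 to 47.2 TPM).

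*Rsad2* (ENSRNOG00000007539, chromosome 6, minus strand, 45655954-45669148), which encodes viperin, an enzyme that makes a chain-terminating nucleotide, was at 26.2, 26.9, and 26.4 normalised CPM in the control rats of Year 2. It was at 19.9, 22.0, and 14.6 in the MWCNT-treated rats, all below the controls (-0.48 ± 0.14, FDR = 0.0186; FDR = 0.0508 and 0.0577 without control rats 1 and 2). Its values at Year 0.5 (0.03 ± 0.20, FDR = 0.917) and Year 1 (-0.03 ± 0.18, FDR = 0.91) overlapped. *Oas1a* (ENSRNOG00000001369, chromosome 12, plus strand, 41200718-41211909) encodes an enzyme that activates RNase L. It ranged from 17.5 to 28.3 normalised CPM in control rats and from 19.3 to 28.1 in MWCNT-treated rats. Its log2 fold changes of 0.21 ± 0.15, 0.20 ± 0.12, and 0.04 ± 0.16 did not pass (FDR = 0.284, 0.21, and 0.841). *Oas1a* belongs to a family of close copies, and the way in which the counting split reads between copies is not stated, so its counts are uncertain in that respect.

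*Cxcl10* (ENSRNOG00000022256, chromosome 14, plus strand, 17210733-17212930) had the fewest counts of the 9 genes, from 44 to 415 in a library, and the largest rise. At Year 0.5 it was 3.20, 7.45, and 4.21 normalised CPM in control rats and 12.9, 20.6, and 8.20 in MWCNT-treated rats. The groups were separate, with a log2 fold change of 1.5 ± 0.38 (FDR = 0.0133), and without control rat 1 it was 1.26 (FDR = 0.057). At Year 1 it was 5.23, 2.78, and 8.62 in control rats and 8.92, 22.1, and 8.28 in MWCNT-treated rats. The groups overlapped through control rat 3, and 1.23 ± 0.46 did not pass (FDR = 0.0576). Without control rat 3 (1.72, FDR = 0.0311), treated rat 1 (1.44, FDR = 0.0454), or treated rat 3 (1.47, FDR = 0.0432) it did pass, and without treated rat 2 it was 0.61. At Year 2 it was 9.86, 11.4, and 9.09 in control rats and 18.2, 21.7, and 10.9 in MWCNT-treated rats. The lowest treated rat was within the control range (0.75 ± 0.23, FDR = 0.0244), and the FDR was between 0.0667 and 0.0921 without control rat 1, control rat 3, treated rat 1, or treated rat 2. *Cxcl10* lies within *Art3*, a gene on the opposite strand, at 2.11 to 7.29 TPM in control rats and 0.86 to 3.25 TPM in MWCNT-treated rats. Reads of the shared stretch cannot be told apart without strand.

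Whether the effect of treatment changed with time was tested as an interaction in one model of all 18 rats. From Year 0.5 to Year 2 the interaction was negative for all 9 genes, from -0.75 ± 0.62 for *Cxcl10* to -0.16 ± 0.23 for *Oas1a*, with a median of -0.37 beside 0.00 for all genes. By edgeR 0 of the 9 passed an FDR of 0.05, and 1, *Ifit3*, had an unadjusted p below 0.05 (-0.56 ± 0.19, FDR = 0.171). DESeq2 also gave 0 calls. Of all genes tested, 1.31% passed this interaction. From Year 1 to Year 2 the 9 values were also all negative (median -0.32) and 0 passed, with 0 at an unadjusted p below 0.05, against 0.478% of all genes. Both interactions share the rats of Year 2. The 9 genes also varied together between rats of the same group, at a median Pearson r of 0.73. Their equal signs are thus not independent observations. From Year 0.5 to Year 1, where 0 of all genes passed, 3 of the 9 values were positive and 6 were negative.

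The control rats were also compared between time points. Age and the number of vehicle instillations rose together over these, so that they cannot be told apart. From Year 0.5 to Year 2, 8 of the 9 genes had a higher fitted level in control rats, with a median log2 change of 0.35 beside -0.00 for all genes, and *Mx2* was at -0.00 ± 0.21. Only *Ifit3* passed the FDR (0.51 ± 0.13, FDR = 0.0312), where 2.65% of all genes were higher and 4.00% lower. The call was lost without control rat 1 (0.36, FDR = 0.147) or control rat 3 (FDR = 0.0806) of Year 0.5 and without control rat 2 of Year 2 (0.43, FDR = 0.129). *Cxcl10* was at 1.04 ± 0.46 (FDR = 0.177) and *Irf7* at 0.57 ± 0.27 (FDR = 0.204). In MWCNT-treated rats over the same interval the 9 values were between -0.25 ± 0.21 (*Mx2*) and 0.29 ± 0.42 (*Cxcl10*), with a median of -0.04, and 0 passed (0 at an unadjusted p below 0.05), against 13.5% of all genes. The comparison of treatments at Year 2 uses the same control rats as this comparison of time points. Since the 9 genes varied together between rats, their directions are not independent here either.

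The 9 genes moved together between rats of the same group. In 4 of the 6 groups a single rat had the highest normalised CPM for all 9 genes. That rat was control rat 2 of Year 0.5, control rat 2 of Year 2, treated rat 2 of Year 0.5, and treated rat 2 of Year 1. Each of these rats was the highest of its group for 29 to 32 of the 44 other type I interferon-induced genes, and for 32.8% to 38.9% of all genes. In the treated rats of Year 2, rat 1 was the highest for 5 genes and rat 2 for 4, and rat 3 was the lowest for 8. That rat 1 was also the highest for 32 of the 44 other genes and for 32.8% of all genes. A lead in the wider list was therefore not limited to the 4 rats above. In the control rats of Year 1 no rat led, with 5, 2, and 2 genes highest in rats 1, 2, and 3, and 22, 18, and 4 of the 44 other genes.

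**Figure D3:**
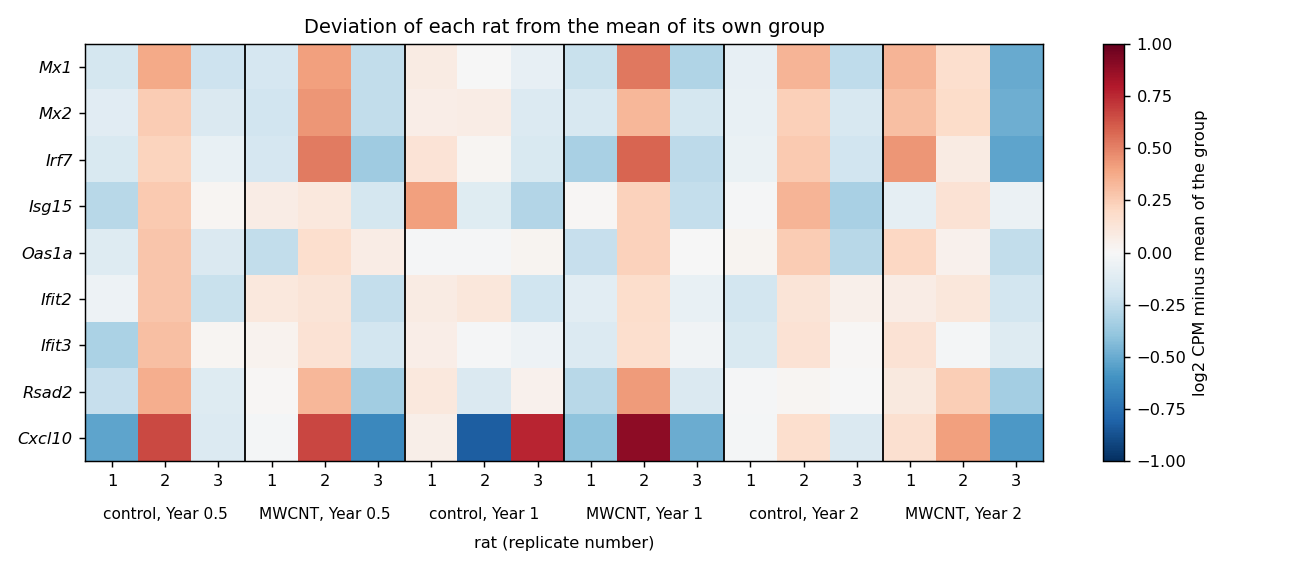
Deviation of log2 normalised CPM of each rat (columns, by replicate number) from the mean of its own group for the 9 genes (rows), red above and blue below the mean. The column of rat 2 is above the mean for all 9 genes (only faintly for *Rsad2* in the last of these groups) in the control and treated groups of Year 0.5, the treated group of Year 1, and the control group of Year 2.

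After the mean of each group was removed, the 36 pairs of the 9 genes correlated at a median Pearson r of 0.73 over the 18 rats, from 0.45 to 0.97. These points share libraries, and the same value for other pairs of genes is not given, so this median is a description. It does not set the 9 genes apart from other genes. *Mx1*, *Mx2*, and *Irf7* differed by up to 1.79-fold, 1.73-fold, and 1.97-fold between the rats of a single group. Of the 4 leading rats, 3 also had the deepest library of their group (21130757, 17158389, and 14721398 counts), whereas control rat 2 of Year 0.5 had the shallowest (13738894 counts). The summed macrophage markers were highest in 3 of the 4 and second in control rat 2 of Year 2, and the summed T and NK cell markers were highest in 3 of the 4 and lowest in treated rat 2 of Year 0.5. The part of depth and of these cell types in the shared variation was not tested. The replicate number does not pair rats, which were separate animals. Whether rats of the same number shared a step of processing is not stated in the sources used here.

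The genes outside the lists whose log2 CPM over the 18 rats was most like the mean of the 9 scaled genes were *AABR07059663.1* (Pearson r = 0.84), *Itgb1bp1* (0.79), *AABR07018078.1* (0.78), *Nudt19* (0.75), and *MGC105567* (0.74), out of 14698 ranked. For comparison, the 9 genes themselves correlated with that mean at between 0.55 (*Ifit2*) and 0.86 (*Rsad2*), each being part of it. The 18 rats include both treatments and all time points, and the points share libraries, so these values are given without a test.

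The transcripts of the interferons themselves were at or near 0. None of the 11 interferon genes found had enough counts to be tested. *Ifnb1*, the gene of interferon beta, had 3 counts in all 18 rats together, 1 each in 3 rats. *Ifna11* had 4 counts in all. *Ifng*, the gene of interferon gamma, had 24 counts in all and at most 5 in one rat, with 2 to 3 in each control rat of Year 2 and 0 to 1 in the treated rats of Year 2. The summed counts went the other way earlier, with 2 in control and 7 in treated rats at Year 0.5 and 0 and 6 at Year 1. A library with 0 counts allows up to 3 counts, so whether interferon transcripts changed could not be tested at this depth.

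Of the 6 interferon receptor genes, 3, 4, and 3 were higher and 0, 0, and 1 lower in MWCNT-treated rats at Years 0.5, 1, and 2, and 0 were DEGs. Of all genes tested, 20.2%, 21.6%, and 25.2% were higher and 18.6%, 19.6%, and 24.0% lower at these time points. The same shares are the background for the counts in the lists and cell markers below and in the lung markers above. Counts near them do not set a list apart from all genes. *Ifngr1*, a chain of the interferon gamma receptor, was higher by 0.29 ± 0.07, 0.27 ± 0.08, and 0.36 ± 0.08 on the log2 scale (FDR = 0.0131, 0.0304, and 0.00479), but by limma on log2(TPM + 1) the values were 0.14, 0.03, and 0.14 (FDR = 0.107, 0.743, and 0.144). Its call at Year 1 was also lost without any one control rat or without treated rat 2 or 3 (FDR = 0.056 to 0.0948). *Ifnar1* was between -0.15 ± 0.10 and 0.19 ± 0.09 and did not pass, except without control rat 3 at Year 0.5 (-0.26, FDR = 0.0218) and without control rat 1 at Year 1 (0.28, FDR = 0.0344).

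The kinases and transcription factors that carry the signal were mixed. Of 11 genes, 4 were higher at each time point and 1, 0, and 2 were lower. *Stat2* (0.19 ± 0.09, 0.09 ± 0.08, and 0.03 ± 0.08) and *Irf9* (-0.06 ± 0.11, 0.03 ± 0.09, and -0.10 ± 0.10) did not pass at any time point, although *Stat2* did at Year 0.5 without control rat 2 (0.29, FDR = 0.0258). *Irf5*, a factor that acts in macrophages downstream of Toll-like receptors, was the only DEG of the list, higher by 1.11 ± 0.13, 1.30 ± 0.16, and 1.28 ± 0.09 (FDR = 0.000227, 0.000381, and 8.32e-06). *Irf1*, a target and factor of interferon gamma signalling that was picked after its values were seen, was lower at Year 0.5 (-0.55 ± 0.15, FDR = 0.0183) and Year 2 (-0.79 ± 0.07, FDR = 1.63e-05), and the call at Year 0.5 was lost without control rat 1 or 2 or treated rat 2 or 3 (FDR = 0.0531 to 0.0716).

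Of 13 genes of nucleic acid sensing, which starts the response, 7, 6, and 8 were higher and 1, 0, and 1 were lower at Years 0.5, 1, and 2, with a median log2 fold change of 0.54, 0.26, and 0.32. *Sting1*, the adaptor of cytosolic DNA sensing, was at 21.9 to 27.7 TPM in all control rats. In MWCNT-treated rats it was at 59.3 to 64.0 TPM at Year 0.5, 67.5 to 74.1 at Year 1, and 79.1 to 90.1 at Year 2 (log2 fold changes of 1.45 ± 0.09, 1.75 ± 0.10, and 1.94 ± 0.08, FDR = 1.22e-05, 4.36e-06, and 3.53e-07). *Unc93b1*, which brings the endosomal Toll-like receptors to their place, was higher by 0.94 ± 0.10, 1.12 ± 0.12, and 1.48 ± 0.08 (FDR = 0.00013, 0.000184, and 1.37e-06). *Tlr9*, a receptor for DNA, was higher by 0.81 ± 0.22, 0.83 ± 0.15, and 1.37 ± 0.14 (FDR = 0.0178, 0.00247, and 4.47e-05), and at Year 0.5 the call was lost without control rat 1, treated rat 1, or treated rat 2 (FDR = 0.0533 to 0.0688).

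The wider list of 44 other type I interferon-induced genes showed both directions. At Year 0.5, 8 were higher and 4 lower, at Year 1, 10 and 8 of 43 tested, and at Year 2, 9 and 17 of 43 tested. Scaling by library size alone, which moved the median of all genes by -0.10, -0.13, and -0.17, gave 6 higher and 12 lower, 6 and 13, and 5 and 23. When 1 rat was left out at a time, the counts at Year 2 were 7 to 9 higher and 12 to 19 lower. The median log2 fold change of the list was 0.00, 0.02, and -0.27. The DEGs of the list were all higher. *Siglec1*, a sialic acid receptor of macrophages, rose most, from 4.60 to 6.69 TPM over all control rats to 17.3 to 24.9, 19.5 to 21.6, and 29.5 to 38.6 TPM in MWCNT-treated rats at Years 0.5, 1, and 2 (2.18 ± 0.15, 1.99 ± 0.11, and 2.83 ± 0.13, FDR = 2.06e-05, 4.65e-06, and 7.54e-07). *Ifitm1* was higher by 0.88 ± 0.11, 0.98 ± 0.15, and 1.56 ± 0.13 (FDR = 0.000424, 0.00107, and 1.61e-05). *Ifi27l2b* was higher by 1.08 ± 0.24, 1.21 ± 0.24, and 0.70 ± 0.25 (FDR = 0.00689, 0.0039, and 0.0461), the last of which did not pass without control rat 1, 2, or 3 or treated rat 1 or 2 (FDR = 0.0846 to 0.164).

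The 3 largest falls of that list at Year 2, picked after their values were seen, were *Slfn4*, *Bst2*, and *Slfn5*. *Slfn4* was at 200.2, 338, and 245 TPM in the control rats of Year 2 and at 127, 116, and 112 TPM in the MWCNT-treated rats, all below (-0.92 ± 0.16, FDR = 0.00126). In control rats it had been at 93.1, 137, and 96.4 TPM at Year 0.5 (Year 2 against Year 0.5, 1.26 ± 0.17, FDR = 0.000821). Its interaction of treatment and time passed (-1.10 ± 0.23, FDR = 0.0287), the only one of the 44 to do so, but not in 7 of the 12 fits that left out a rat of these groups (FDR = 0.0582 to 0.0814), which were those without control rats 1 and 3 of Year 0.5, control rat 2 of Year 2, treated rat 3 of Year 0.5, and each treated rat of Year 2. *Bst2*, which encodes tetherin, was lower at each time point (-0.46 ± 0.07, -0.34 ± 0.09, and -0.81 ± 0.11, FDR = 0.000767, 0.0121, and 0.000323). *Slfn5* was lower as well (-0.56 ± 0.09, -0.59 ± 0.09, and -0.80 ± 0.09, FDR = 0.00134, 0.00145, and 7.06e-05).

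**Figure D4:**
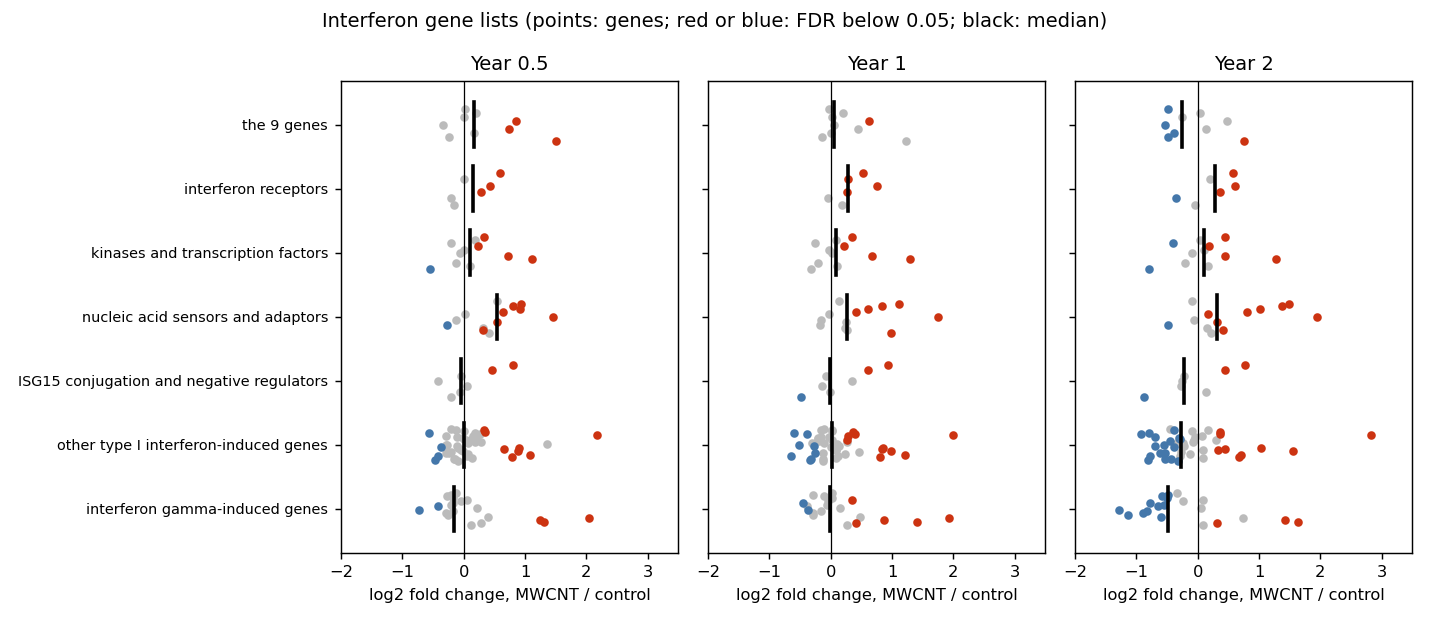
Log2 fold change of MWCNT-treated over control rats at each time point for every gene tested in 7 lists (one point per gene; red or blue for an FDR below 0.05, grey otherwise; black bar, the median). The 9 genes and the list of other type I interferon-induced genes have points on both sides of 0 at every time point, with more blue points at Year 2 (4 and 17) than at Year 0.5 (0 and 4).

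Among the 7 genes of ISG15 conjugation and negative regulation, 2, 2, and 2 were higher and 0, 1, and 1 lower. *Usp18*, which removes ISG15 and restrains the type I receptor, was at 19.4 to 32.3 normalised CPM in control rats. In MWCNT-treated rats it was at 38.5, 53.8, and 35.2 at Year 0.5, 35.1, 54.6, and 29.2 at Year 1, and 51.1, 40.6, and 32.4 at Year 2. Treated rats were above the control rats of their time point throughout (0.80 ± 0.21, 0.93 ± 0.21, and 0.77 ± 0.16, FDR = 0.0154, 0.00794, and 0.0033), and the call at Year 0.5 was lost without control rat 1 (FDR = 0.0673) or treated rat 2 (FDR = 0.0551). *Herc6*, the main ISG15 ligase of mice, moved the other way. It was at 81.3, 102, and 91.6 normalised CPM in the control rats of Year 2 and at 47.5, 52.6, and 48.5 in the treated rats (-0.88 ± 0.09, FDR = 5.57e-05), and at -0.48 ± 0.08 (FDR = 0.00152) and -0.20 ± 0.11 (FDR = 0.193) at Years 1 and 0.5. Its interaction between Year 2 and Year 0.5 passed (-0.67 ± 0.15, FDR = 0.0332), but not without control rat 1 or 3 or treated rat 3 of Year 0.5, control rat 2 of Year 2, or treated rat 1 or 3 of Year 2 (FDR = 0.0609 to 0.0977). *Socs3*, an inhibitor of cytokine receptors, did not pass (-0.41 ± 0.22, 0.34 ± 0.27, and -0.25 ± 0.16), but it did without control rat 3 at Year 0.5 (-0.60, FDR = 0.0436), control rat 1 at Year 1 (0.78, FDR = 0.00678), and control rat 3 at Year 2 (-0.40, FDR = 0.0304).

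The genes induced by interferon gamma also split. Of 20 tested, 3, 5, and 3 were higher and 2, 2, and 11 lower at Years 0.5, 1, and 2. Those higher included genes of antigen presentation: *Cd74*, the invariant chain of class II molecules, by 1.31 ± 0.09, 1.40 ± 0.13, and 1.63 ± 0.11 (FDR = 1.94e-05, 8.78e-05, and 5.58e-06), and *Ciita*, their master regulator, by 1.24 ± 0.15, 0.87 ± 0.12, and 1.43 ± 0.12 (FDR = 0.000278, 0.000517, and 1.96e-05). *Cxcl11*, a ligand of the same receptor as *Cxcl10*, was low, at 0.261 to 1.96 TPM in control rats and 1.39 to 4.77 TPM in MWCNT-treated rats. It was higher at Year 0.5 (2.04 ± 0.62, FDR = 0.0282) and Year 1 (1.93 ± 0.44, FDR = 0.00743) and did not pass at Year 2 (0.74 ± 0.38, FDR = 0.132). The call at Year 0.5 was lost without control rat 1 or 3 or treated rat 2 or 3 (FDR = 0.055 to 0.115). Of the 4 genes of guanylate-binding proteins tested, 1, 1, and 4 were lower at Years 0.5, 1, and 2, *Gbp5* by -0.73 ± 0.19, -0.37 ± 0.11, and -1.29 ± 0.11 (FDR = 0.0162, 0.0263, and 2.18e-05; the first was lost without treated rat 2 or 3 and the second without control rat 1 or 2 or treated rat 3, FDR = 0.062 to 0.0823), and *Gbp1* at Year 2 by -1.14 ± 0.32 (FDR = 0.0158; FDR = 0.0504 to 0.0581 without control rat 3, treated rat 2, or treated rat 3). *Gbp1* did not pass at Year 0.5 (-0.26 ± 0.31, FDR = 0.534) or Year 1 (-0.29 ± 0.37, FDR = 0.547).

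Markers of other cells in the tissue moved over the same comparisons. Of 7 macrophage markers, 6, 5, and 7 were higher and 0, 1, and 0 lower at Years 0.5, 1, and 2. Of 10 T and NK cell markers, 7, 5, and 9 were lower and 0 were higher, and their summed level was 271 to 367, 363 to 419, and 402 to 684 TPM in control rats and 158 to 200.3, 162 to 231, and 113 to 278 TPM in MWCNT-treated rats. Of 4 B cell markers, 4, 1, and 2 were lower. The neutrophil markers summed to 206 to 365 TPM in control rats and 359.7 to 1130.4 TPM in treated rats, with *Mpo* at 3 counts or fewer in every rat. Of the 4 tested, 1, 2, and 2 were higher and 0 were lower: *S100a9* at all 3 time points (means of 241, 616, and 560.3 TPM in treated rats and 102, 140.5, and 141 TPM in control rats) and *S100a8* at Years 1 and 2. *Csf3r*, the receptor of a growth factor of neutrophils, did not pass at any time point (-0.06 ± 0.13, -0.14 ± 0.15, and -0.17 ± 0.18), nor did *Cxcr2*. Those of plasmacytoid dendritic cells, the main producers of type I interferon, summed to 39.4 to 55.9 TPM in control rats and 34.8 to 46.3 TPM in treated rats. Most of this sum was *Il3ra*, with means of 50.1 and 40.4 TPM in control and treated rats at Year 2. There *Siglech* was at 0.708 and 0.197, *Ccr9* at 0.743 and 0.182, and *Pacsin1* at 2.16 and 2.31 TPM. The sum therefore says little about the scarcer markers. By edgeR 0 of the 3, 3, and 2 of these markers that were tested passed, with 1, 1, and 0 at an unadjusted p below 0.05. The part of these shifts in the values of the 9 genes was not tested.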

How the data were processed

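RNA-seq libraries of total RNA from the accessory lobe of 18 rats were analysed from 3 deposited tables, one per time point. According to the methods, the authors mapped and counted reads with CLC Genomics Workbench, and the submitters' processing notes name the builds Rnor_6.0 and rn6. The strand setting of the counting is not given in the sources used here. The deposited counts per gene are not normalised, and TPM values were computed by the authors. The other 36 per-sample columns (RPKM and CPM) and the columns of the authors' own comparisons (fold changes and p-values) were not used.

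Counts were filtered with filterByExpr (minimum count 10, minimum total 15), scaled by TMM, and compared by edgeR's quasi-likelihood test (version 4.0.16, R 4.3.3) in the 6 rats of each time point, and in one model of 18 rats for interactions and time effects. Benjamini-Hochberg FDR values cover all genes tested. The DEG criterion combined an FDR under 0.05 with a log2 fold change beyond 1 in either direction, whereas interactions were called by the FDR alone. Each rat is one replicate. Alternatives were DESeq2 (1.42.0), limma (3.58.1) on log2(TPM + 1) and log2(TPM + 0.1), library size alone, other filters, a block for the replicate number, a single model of every rat, and leaving out each rat. The scripts were tested on simulated data.

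Total counts were 13297643 to 21130757 per library, which limits the precision for genes with few counts. Replicate numbers do not pair rats, which were separate animals. The mean correlation of deviations was 0.007 for the same number (lowest -0.15) and -0.003 for other numbers. This value does not describe the 9 genes by themselves. From each gene list, up to 3 DEGs with the largest rise and up to 3 with the largest fall were named, and in a list without DEGs a few genes by a set rule. One gene that the rule names is not reported here. The 9 genes and the lists were chosen with earlier results of these data known.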

Additional observations from a re-analysis of the deposited data

Results flagged for a closer look

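A difference in the effect of treatment between Year 2 and Year 0.5 passed the interaction test for 2 of the genes named, where 1.31% of all genes tested passed. *Slfn4* was picked after its fall at Year 2 was seen, so its interaction is a description of the values that picked it. As given above, both calls were lost in several of the fits that left out 1 rat. For *Herc6* the interaction was -0.67 ± 0.15 on the log2 scale (edgeR FDR = 0.0332), with a treatment effect of -0.20 at Year 0.5 and -0.88 at Year 2. For *Slfn4* it was -1.10 ± 0.23 (edgeR FDR = 0.0287), with 0.19 at Year 0.5 and -0.92 at Year 2. In control rats *Slfn4* was higher at Year 2 than at Year 0.5 by 1.26 ± 0.17 (FDR = 0.000821), and in MWCNT-treated rats the same change was 0.16 ± 0.17 (FDR = 0.583). For *Herc6* these changes were 0.26 ± 0.10 (FDR = 0.141) and -0.42 ± 0.11 (FDR = 0.0144). All of these comparisons share rats with each other.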

How the results depend on the processing

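The number of the 9 genes called as DEGs was 1, 0, and 0 at Years 0.5, 1, and 2. By the FDR alone it was 3, 1, and 5, and 1 for control rats from Year 0.5 to Year 2. At Year 1 it was 1 without a filter and 1 in the model of all rats. With each rat left out it was 0 to 2 at Year 0.5 (0 without control rat 1, 2 without control rat 2), 0 to 1 at Year 1 (1 without control rat 3, treated rat 1, or treated rat 3), and 0 at Year 2. With the replicate number as a block it was again 1, 0, and 0. The numbers pair no rats, and by the FDR *Mx1* also passed at Year 2 under the block (0.45, FDR = 0.0342). Interactions and the other time effects kept 0 calls under every alternative run.

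Scaling by library size moved the median of all genes by -0.10, -0.13, and -0.17, and limma on TPM by -0.14, -0.23 (-0.24 with the smaller pseudocount), and -0.21. The FDR counts of the 9 genes were then 3 higher and 1 lower, 0 and 0, and 0 and 4 by library size, and 2 and 1, 0 and 2, and 0 and 4 by limma. Whether genes were called lower before Year 2 thus depended on the scaling. *Mx1* at Year 1 (0.49, FDR = 0.0644) and *Cxcl10* at Year 2 (0.58, FDR = 0.0609) lost their calls by library size and by limma (0.34, FDR = 0.138, and 0.46, FDR = 0.109, with the pseudocount 1), as did *Irf7* at Year 0.5 by limma (0.54, FDR = 0.0605). The model of all rats gave 0.62 (FDR = 0.0523) and 0.75 (FDR = 0.152) and, for *Rsad2* at Year 2, -0.48 (FDR = 0.0562). Signs turned for values near 0, none of which had passed. By library size they were *Mx2* at Year 1 (-0.10), *Irf7* at Year 2 (-0.05), *Isg15* at Year 1 (-0.08), *Oas1a* at Year 2 (-0.13), *Rsad2* at Year 0.5 (-0.08), *Stat2* at Years 1 and 2 (-0.05 and -0.14), and *Irf9* at Year 1 (-0.11). By limma with the pseudocounts 1 and 0.1 they were *Mx2* at Year 1 (-0.22 and -0.22), *Irf7* at Year 2 (-0.13 and -0.13), *Isg15* at Year 1 (-0.16 and -0.17), *Oas1a* at Year 1 (-0.04 and -0.05) and Year 2 (-0.16 and -0.17), *Rsad2* at Year 0.5 (-0.11 and -0.12), *Ifnar1* at Year 1 (-0.04 and -0.04), *Stat2* at Year 1 (-0.14 and -0.15) and Year 2 (-0.19 and -0.19), and *Irf9* at Year 1 (-0.21 and -0.21). The cause was not tested.

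With each rat left out, the log2 values whose sign turned ranged from -0.16 to 0.12 for *Mx2* at Year 1, -0.40 to 0.01 for *Mx2* in the interaction of Year 2 and Year 0.5, -0.11 to 0.36 for *Irf7* at Year 2, -0.09 to 0.29 for *Isg15* at Year 1, -0.08 to 0.18 for *Oas1a* at Year 2, -0.02 to 0.23 for *Ifit2* in control rats from Year 0.5 to Year 2, -0.15 to 0.23 for *Rsad2* at Year 0.5, -0.28 to 0.10 for *Rsad2* at Year 1, -0.43 to 0.12 for *Gbp1* at Year 0.5, -0.73 to 0.04 for *Gbp1* at Year 1, -0.05 to 0.09 for *Stat2* at Year 2, -0.13 to 0.04 for *Irf9* at Year 0.5, and -0.04 to 0.10 for *Irf9* at Year 1. Values of -0.00 lay on both sides of 0, from -0.25 to 0.13 for *Mx2* at Year 0.5, -0.13 to 0.13 for *Mx2* in control rats from Year 0.5 to Year 2, and -0.10 to 0.06 for *Ifit3* at Year 1. *Ifit2* and *Ifit3* at Year 2 kept their calls under every alternative run.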
